A study of Arabidopsis thaliana with 57 samples.

Results

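The genes described here encode histone H3.1 (AT1G09200 or HTR2, AT3G27360, AT5G10390, AT5G10400 or HTR9, and AT5G65360) and histone H3.3 (AT4G40030 or HTR4, AT4G40040 or HTR5, and AT5G10980 or HTR8) in Arabidopsis. They were listed by gene identifier, with earlier results of these data known: 5 H3.1 genes and 3 H3.3 genes, 8 of the 27655 genes in the count table. All 8 were found, and all 8 passed the filter on low counts in each of the 29 comparisons made. The question put to them was whether the level of either H3 class, or the balance between the classes, differed between cells induced for different stomatal transcription factors.

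All plants were Col-0 and carried the FAMA promoter in front of LhG4-GR, a synthetic activator that enters the nucleus when dexamethasone (DEX) is given, and a second transgene, in which the OP promoter that LhG4 recognises controls a Venus fusion. Venus was joined to FAMA, to SPCH, to SRDX-FAMA or to SRDX-SPCH (SRDX is a short domain that represses transcription), and in the control line, NLS, to a nuclear localization signal. Seedlings were given 30 µM DEX at 10 days after germination, and their true leaves were taken after 2, 3 or 4 h. The leaf cells of every line were then protoplasted for 2 h. Venus-positive protoplasts were collected by fluorescence-activated cell sorting, so the time points do not include this step. The control carried LhG4-GR, Venus and DEX as well, so the lines differed in the protein fused to Venus. Transgene and sort followed the FAMA promoter, which is active in guard mother cells, guard cells and a few myrosin cells. By the authors' own reasoning, the NLS sort may hold more cells of weak fluorescence, which would skew its cell composition. They gave it because genes lower than in NLS were enriched for DNA replication and mitosis, which they did not expect for SPCH. Their search for targets therefore used changes over time and SPCH against FAMA instead of NLS. Whether the plants of a line descend from 1 insertion is not given in the sources used here. The 57 libraries comprised NLS (3, 4 and 4 at 2, 3 and 4 h), FAMA (4, 3 and 4), SPCH (4, 4 and 4), SRDX-FAMA (4, 4 and 4) and SRDX-SPCH (4, 3 and 4).

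H3 is 1 of the core histones around which DNA is wrapped in the nucleosome. H3.1 is produced mostly in S phase and is placed on newly copied DNA by the chaperone CAF-1, whereas H3.3 is made through the whole cycle and is placed, by HIRA and ATRX, on transcribed and regulatory chromatin. Plant H3.1 genes are therefore known as genes of dividing cells and H3.3 genes as broadly active ones. In the stomatal lineage, a guard mother cell divides symmetrically to give a pair of guard cells, which then leave the cycle; SPCH starts the lineage and its asymmetric divisions, and FAMA, a related bHLH factor, ends division and promotes guard cell identity.

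The 5 H3.1 genes encode the same protein of 135 residues, counted from the residue after the initiator methionine, and the 3 H3.3 genes encode a second protein of the same length. The proteins differ at 4 residues, written with the H3.1 residue of AT1G09200 first and the H3.3 residue of AT5G10980 second: A31T, F41Y, S87H and A90L. The stretches below are the RefSeq coding sequence (TAIR10.1) of residues 28 to 44, which hold the first pair of differences, printed because they show what separates the classes; capitals mark the codons of residues 31 and 41.
AT1G09200 (H3.1): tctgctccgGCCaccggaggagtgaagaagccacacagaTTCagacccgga
AT3G27360 (H3.1): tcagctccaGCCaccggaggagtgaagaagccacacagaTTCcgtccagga
AT5G10390 (H3.1): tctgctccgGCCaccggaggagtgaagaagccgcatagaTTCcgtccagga
AT5G10400 (H3.1): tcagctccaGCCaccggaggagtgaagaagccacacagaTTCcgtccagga
AT5G65360 (H3.1): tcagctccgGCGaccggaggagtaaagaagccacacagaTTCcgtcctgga
AT4G40030 (H3.3): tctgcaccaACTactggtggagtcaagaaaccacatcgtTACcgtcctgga
AT4G40040 (H3.3): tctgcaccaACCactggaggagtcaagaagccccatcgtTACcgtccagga
AT5G10980 (H3.3): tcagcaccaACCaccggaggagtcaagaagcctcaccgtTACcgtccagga

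The second pair of differences lies in residues 84 to 93, where capitals mark the codons of residues 87 and 90 in 1 gene of each class.
AT1G09200 (H3.1): ttccagagcAGTgccgtcGCCgctcttcag
AT5G10980 (H3.3): tttcagagtCACgcggtgTTAgctcttcaa

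Although the H3.1 proteins are identical, their coding sequences shared between 80.29% and 89.54% of bases, so that most reads of 50 bases could be told apart. Of all 50-base windows along the 8 transcripts, only 10 in AT3G27360 and 10 in AT5G10400 also occurred in another of the genes, those of AT3G27360 in AT5G10400 and the reverse. A read from these windows would not have been unique.

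All 8 genes lie on the minus strand (TAIR10.1). The H3.1 genes have 1 exon each: AT1G09200 at chr1:2971571-2972334, AT3G27360 at chr3:10129105-10129937, AT5G10390 at chr5:3268847-3269594, AT5G10400 at chr5:3270172-3270957 and AT5G65360 at chr5:26119859-26120581. The H3.3 genes have 3 to 5 exons: AT4G40030 at chr4:18555532-18557106, AT4G40040 at chr4:18557149-18558945 and AT5G10980 at chr5:3472405-3473570. AT3G27360 is the only member that another gene overlaps on its own strand: 328 of its 833 exon bases (39.38%), at chr3:10129610-10129937, are also exon of AT3G27380 (SDH2-1, a subunit of mitochondrial succinate dehydrogenase). Whether reads there were counted for either gene is not given in the sources used here, so AT3G27380 is reported beside AT3G27360.

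The letters CGCGGATC, the octamer known from plant histone promoters, were searched on both strands in the 250 bases before each gene start. They were found in 3 of 5 H3.1 genes and 1 of 3 H3.3 genes, against 37 of 27561 genes (0.134%) in the whole annotation. The window before HTR4 (chr4:18557107-18557356) lies mostly within the HTR5 gene (chr4:18557149-18558945), so for HTR4 the search covered mainly sequence of its neighbour. The matches are printed along the gene's strand with the octamer in capitals. They start 90 and 19 bases before AT1G09200 (chr1:2972406-2972435 and chr1:2972335-2972364), 120 before AT5G10400 (chr5:3271059-3271088), 126 before AT5G65360 (chr5:26120689-26120718) and 17 before AT4G40040 (chr4:18558946-18558973), where the octamer is on the opposite strand.
AT1G09200, first match: tcgtaccttcaCGCGGATCagtgttagaaa
AT1G09200, second match: ctgtgatttcaCGCGGATCgtgatagaaac
AT5G10400: ttaacacaggaCGCGGATCgtaaagataca
AT5G65360: tttagacgtgaCGCGGATCactaaaattaa
AT4G40040: tttatttcagcGATCCGCGacggtttgt

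Another 3 strings were searched in the same way and occurred in none of the 8 windows: CATCCAACG, the histone nonamer (0.152% of all genes), and the E2F-type letters TTTCCCGC (0.617%) and TTTGGCGC (0.359%). A match describes letters only, and the absence of a match says nothing of the factor.

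Library totals ranged from 7296381 to 60348384 counts, with a median of 33317326. The library labelled SRDX-FAMA 4 h replicate 2 goes against its label: SPCH stood at 9661 normalized CPM (counts scaled to library size, with TMM factors between libraries) and FAMA at 344.5 there, whereas the other 3 libraries of its group had SPCH at 18.8 to 34.1 and FAMA at 2509 to 3567. Comparisons of SRDX-FAMA with other lines, its H3.1 share and sum, and the correlations between genes are given with and without it. It is also shallow, with 8013817 counts, and only SRDX-SPCH 2 h replicate 3 had fewer (7296381). That SRDX-SPCH library had similar levels, SPCH at 9628 and FAMA at 338.3 normalized CPM. Its SPCH level was above the range of the other SRDX-SPCH libraries, 4828 to 7719. FAMA 3 h replicate 3 also stood apart: SPCH was at 279.8 normalized CPM there and at 5.61 to 25.3 in the other 10 FAMA libraries, while its FAMA level, 3534, was just under theirs (3663 to 7223). FAMA against NLS, SPCH against FAMA with the time points pooled, and SRDX-FAMA against FAMA are given without this library as well. So is FAMA at 3 h against 2 h. For other comparisons that use it, such as SPCH against FAMA at 3 h, fold changes are given with it only. Markers of guard cells, meristemoids and guard mother cells, and myrosin cells had reads in each library, and so had the markers of mesophyll and of epidermis; none of the 21 was at 0 in any library. The 2 genes of the myrosin cell list, TGG1 and TGG2, had the highest median levels of them, 37790 and 3238 normalized CPM. Sums over this list are therefore mostly TGG1. The paper describes myrosin cells as a small portion of the sorted cells, and these levels do not measure their share. In such bulk samples, fewer cells of a type and less RNA per cell cannot be told apart.

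H3.3 transcripts far outnumbered H3.1 transcripts in the sorted cells. In normalized CPM per kb of exon, the scale used wherever genes are compared with each other, HTR5 had a mean level of 314.1 ± 44.1 (SD over 57 libraries), HTR8 310.6 ± 72.2 and HTR4 121.5 ± 18.7. The highest H3.1 level was that of AT1G09200, 7.75 ± 2.58, followed by AT5G65360 at 2.77 ± 0.82, AT5G10400 at 2.35 ± 1.10, AT3G27360 at 2.25 ± 0.88 and AT5G10390 at 1.44 ± 0.71. The lowest value of any H3.3 gene, 81.9 for HTR4, was above the highest value of any H3.1 gene, 16.6 for AT1G09200, so the classes did not overlap in any library. Within the order of levels, HTR5 and HTR8 lay within each other's spread, as did AT5G65360, AT5G10400 and AT3G27360. AT1G09200 was higher in its lowest library (3.84) than the means of the other 4 H3.1 genes, although its range overlapped theirs.

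**Figure D1:**
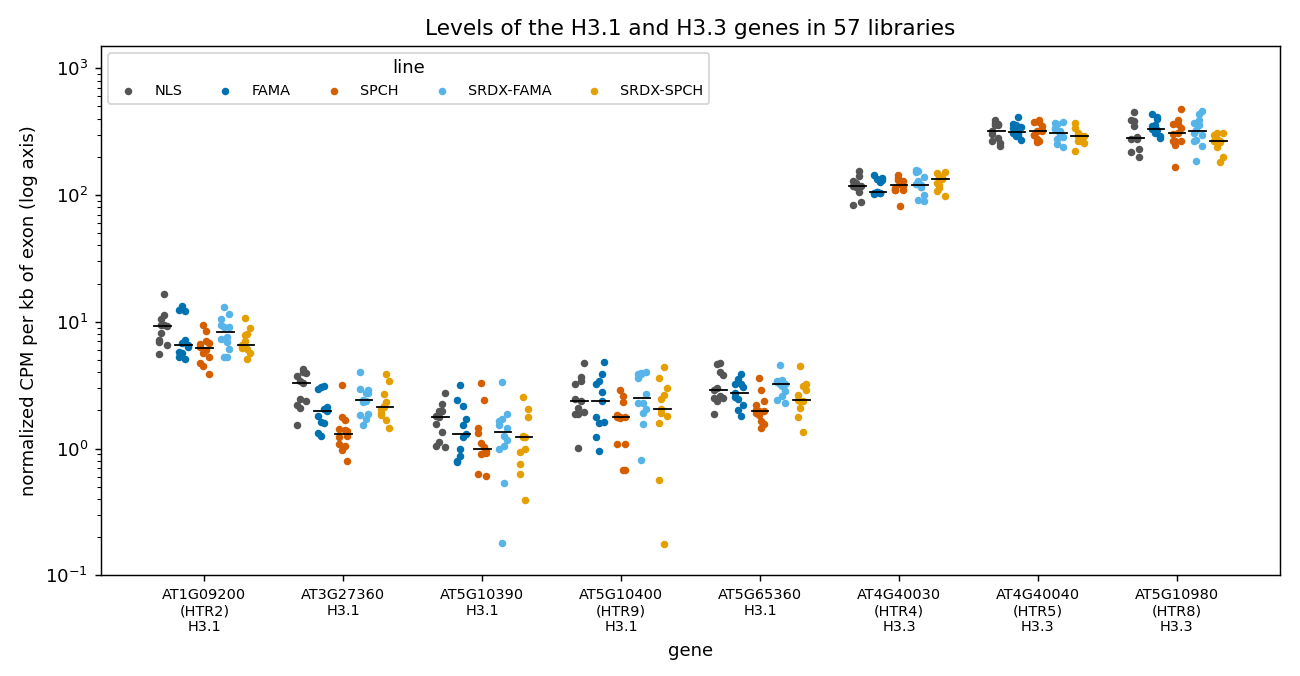
Normalized CPM per kb of exon (log axis) of the 5 H3.1 genes and 3 H3.3 genes, 1 point per library, coloured by line, with a black bar at the median of each line. The H3.3 genes lie between 81.9 and 477.2 in all 57 libraries and the H3.1 genes between 0.18 and 16.6, and the lines overlap for every gene.

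Relative to the other genes of the table, the H3.3 genes were among the most highly expressed, above 96.42% (HTR4), 97.93% (HTR8) and 99.13% (HTR5) of genes by mean normalized CPM. The H3.1 genes were in the middle of the range: AT1G09200 was above 52.32% of genes and the other 4 above 33% to 40.53%. A library held between 28 and 492 counts of AT1G09200 (median 180) and between 1 and 135 of AT5G10390 (median 30), while HTR5 had 3094 to 28706. The lowest values of AT5G10390 and AT5G10400 rest on 1 count each, in the SRDX-FAMA 4 h replicate 2 and SRDX-SPCH 2 h replicate 3 libraries, which are the shallowest of the series.

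H3.1 levels also varied more between libraries than H3.3 levels. The coefficient of variation over the 57 libraries was 29.5% for AT5G65360, 33.3% for AT1G09200, 39.2% for AT3G27360, 46.9% for AT5G10400 and 49.4% for AT5G10390, against 14.0% for HTR5, 15.4% for HTR4 and 23.2% for HTR8. The coefficient of variation that counting error alone would give at these counts (Poisson) was 6.93% for AT1G09200 to 16.6% for AT5G10390, and 0.79% to 1.35% for the H3.3 genes. Within groups of 1 line and time point the coefficients were 22.4% to 39.1% for H3.1 genes and 13.4% to 20.9% for H3.3 genes, so replicates of 1 group already showed much of the spread.

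The share of H3.1 in the summed H3.1 and H3.3 level per kb had a median of 2.06% over the 57 libraries, with a range of 1.13% to 4.91%. By line it was 2.62% ± 0.78 in NLS (SD, n = 11), 2.44% ± 1.05 in SRDX-FAMA (n = 12), 2.26% ± 0.64 in SRDX-SPCH (n = 11), 2.07% ± 0.64 in FAMA (n = 11) and 1.69% ± 0.53 in SPCH (n = 12). Without the library labelled SRDX-FAMA 4 h replicate 2, the share in SRDX-FAMA was 2.52% ± 1.07 (n = 11). Each line overlapped its neighbours in this order, and even SPCH (1.13% to 2.98%) overlapped NLS (1.73% to 4.19%). In FAMA the 2 h libraries stood apart from the later ones, which was the case in no other line: the share was 2.82% ± 0.30 at 2 h (2.56% to 3.19%, n = 4), 1.66% ± 0.24 at 3 h (1.39% to 1.88%, n = 3, or 1.55% ± 0.23 without replicate 3) and 1.62% ± 0.17 at 4 h (1.45% to 1.77%, n = 4). No test was run on this share, since it combines genes chosen with results known.

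**Figure D2:**
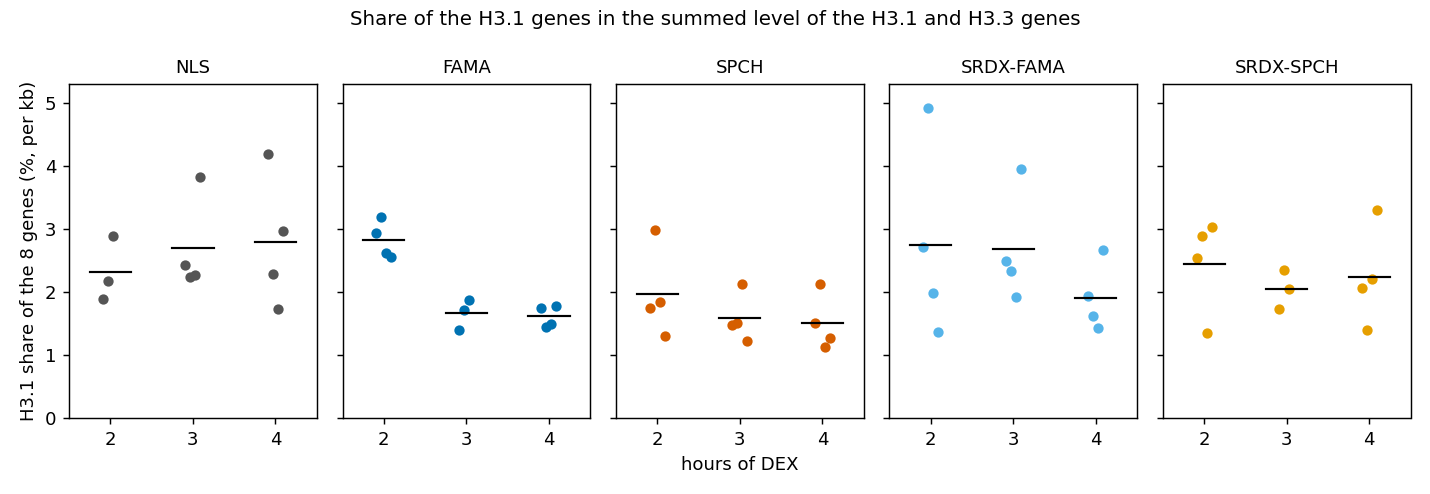
Share of the 5 H3.1 genes in the summed normalized CPM per kb of the 8 genes (percent), by line and time point, 1 point per library with a bar at the mean of each group. In FAMA the 2 h libraries (2.56% to 3.19%) lie above all 3 h and 4 h libraries (1.39% to 1.88%), whereas the time points overlap in the other lines.

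Summed over the 5 genes, H3.1 stood at 15.1 ± 4.21 normalized CPM in NLS, 13.9 ± 3.89 in SRDX-FAMA, 12.8 ± 4.42 in FAMA, 11.9 ± 3.08 in SRDX-SPCH and 9.72 ± 2.93 in SPCH. Summed over the 3 H3.3 genes, the lines lay between 821.5 ± 82.5 (SRDX-SPCH) and 933.5 ± 80.0 (FAMA), with SPCH at 899.1 ± 114.1 and NLS at 886.4 ± 141.9. Without the library labelled SRDX-FAMA 4 h replicate 2, the H3.1 sum of SRDX-FAMA was 14.4 ± 3.66. The FAMA libraries had H3.1 sums of 14.0 to 20.3 at 2 h, 8.90 to 11.9 at 3 h and 9.03 to 10.3 at 4 h.

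Each line was first compared with NLS over the 3 time points together, using edgeR's quasi-likelihood test with time point as an additive term, Benjamini-Hochberg adjustment over all genes tested and a threshold of 0.05. In SPCH, 2 of the 5 H3.1 genes fell and none rose, and none of the 3 H3.3 genes passed the test. Of all genes tested in this comparison 6.84% were called, and 4.13% were called lower in SPCH.

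AT3G27360 fell most. Its level was lowest at 1.29, median 2.75 and highest at 3.53 normalized CPM in the 11 NLS libraries, and 0.66, 1.09 and 2.66 in the 12 SPCH libraries. The ranges overlapped, but 9 of 12 SPCH libraries were below the lowest NLS library and 12 of 12 were below the NLS median. The log2 fold change was −1.07 (SE 0.22, adjusted p = 0.0034), a ratio of 0.476, and only 0.80% of genes had a lower log2 fold change. AT3G27380, the gene that overlaps its start, was not called: it had a median of 195.6 normalized CPM in NLS and 212.4 in SPCH, with a log2 fold change of 0.03 (SE 0.10, adjusted p = 0.95). AT3G27360 stayed past the threshold whichever library was left out.

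AT1G09200 also fell. It ranged from 4.25 to 12.7 normalized CPM in NLS, with a median of 7.08, and from 2.93 to 7.25 in SPCH, with a median of 4.71; 11 of 12 SPCH libraries were below the NLS median. The log2 fold change was −0.56 (SE 0.17, adjusted p = 0.048), a ratio of 0.676. This call is at the edge of the threshold. The adjusted p was above 0.05 in 17 of the 23 fits that left out 1 library, where it ran up to 0.093 (SPCH 3 h replicate 4) at log2 fold changes of −0.59 to −0.45. The libraries whose removal kept the call were NLS 2 h replicate 1, NLS 3 h replicates 1 and 2, NLS 4 h replicate 2, SPCH 2 h replicate 2 and SPCH 3 h replicate 3. These fits did not use the letter that ends each library name, by which 8 of 9 pairs of SPCH and NLS libraries correlated over 0.1. With this letter as a block, AT1G09200 was at −0.575 (edgeR adjusted p = 0.0035). DESeq2 without a block gave an adjusted p of 0.016.

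The other 3 H3.1 genes had log2 fold changes below 0 in SPCH that did not pass: −0.57 for AT5G65360 (SE 0.18, adjusted p = 0.067), −0.66 for AT5G10400 (SE 0.27, adjusted p = 0.16) and −0.40 for AT5G10390 (SE 0.28, adjusted p = 0.49). DESeq2's Wald test, run as an alternative, called 3 of the 5, adding AT5G65360 (adjusted p = 0.019), while it called 6.91% of all genes lower in SPCH. The H3.3 genes stood at log2 fold changes of 0.02 (HTR4, SE 0.10), 0.02 (HTR5, SE 0.09) and 0.05 (HTR8, SE 0.16), with adjusted p from 0.95 to 0.97 by edgeR. The median over the H3.1 genes was −0.57 and over the H3.3 genes 0.02, beside 0.01 over all genes tested.

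Epidermal markers moved in the same direction as the H3.1 genes. Both markers (PDF1 and ATML1) fell in SPCH, and their summed level ranged from 132.7 to 289.8 normalized CPM in NLS and from 59.3 to 141.1 in SPCH. Of the 7 markers of meristemoids and guard mother cells, 2 fell, with sums of 277.9 to 435.5 in NLS and 165.0 to 544.7 in SPCH. Both myrosinase genes rose (sums of 23030 to 45340 in NLS and 45830 to 84070 in SPCH). Of the 6 guard cell markers, 1 rose, and none of the 4 mesophyll markers was called. The paper lists PDF1 among its putative targets of SPCH or FAMA, and as a gene that normally goes down as stomata mature. HDG2, a marker of the meristemoid and guard mother cell list, is also among these putative targets. EPF2, of the same list, is described there as a direct SPCH target in the early lineage. TMM and HDG2 had the highest medians of this list, 127 and 118.6 normalized CPM over all libraries, so its sums are largely theirs. Guard mother cells and guard cells are themselves epidermal, so PDF1 and ATML1 do not measure a share of other cells. The part of these cell types in the H3.1 result was not tested.

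**Figure D3:**
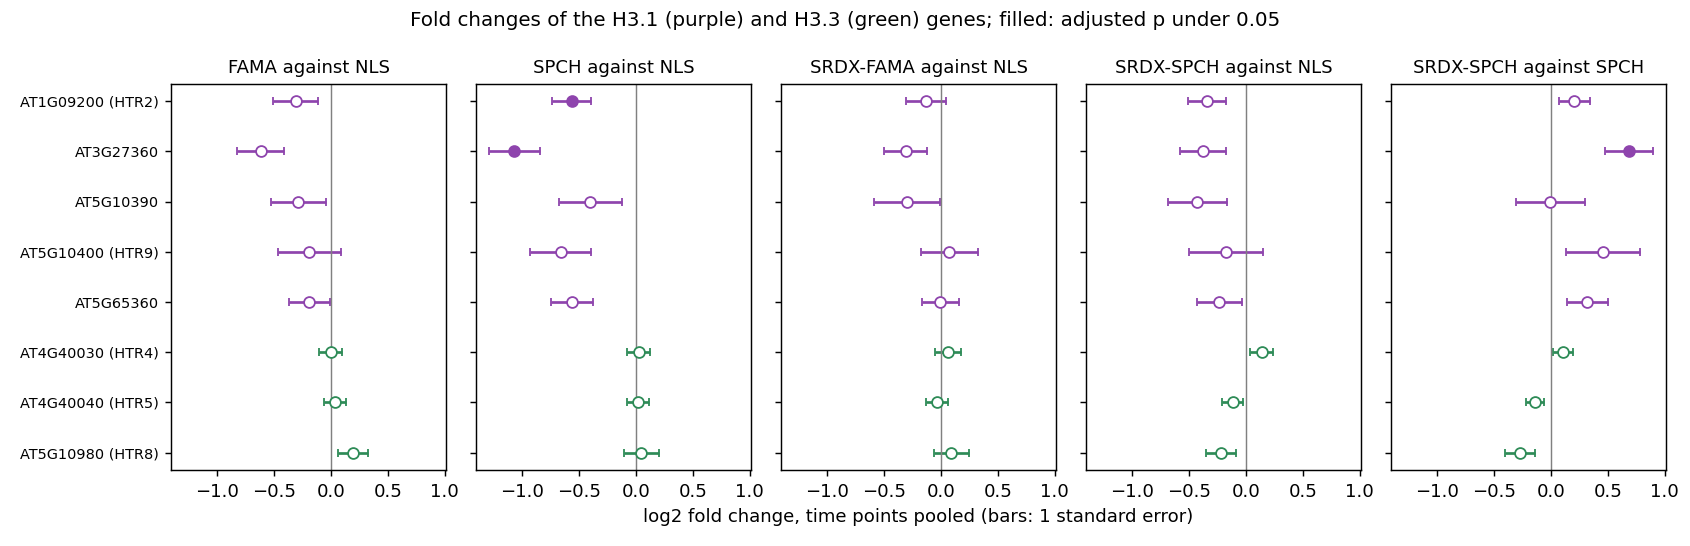
Log2 fold change of each H3.1 and H3.3 gene in 5 comparisons of lines with the time points pooled, with bars of 1 SE on each side and filled points for genes past an adjusted p of 0.05 in edgeR's quasi-likelihood test. AT3G27360 (−1.07) and AT1G09200 (−0.56) are filled in SPCH against NLS and AT3G27360 (0.69) in SRDX-SPCH against SPCH, while no H3.3 gene is filled and their values lie between −0.27 and 0.20.

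In FAMA, no member passed the test against NLS, where edgeR called 7.42% of all genes; 1 member had an unadjusted p under 0.05. That gene was again AT3G27360, a log2 fold change of −0.62 (SE 0.21, adjusted p = 0.074), with levels of 1.04, 1.64 and 2.59 normalized CPM as lowest, median and highest in the 11 FAMA libraries. All 11 FAMA libraries were below the NLS median of 2.75, and 6 of 11 NLS libraries were above the highest FAMA library. AT3G27380 had a log2 fold change of 0.12 (SE 0.08, adjusted p = 0.47). Library names end in a letter, which pairs FAMA with NLS libraries by the check given with the methods, and it was also fitted as a block. With this block AT3G27360 was called, at −0.70 and an adjusted p of 0.036, where 6.15% of genes were called lower. DESeq2 also called it (adjusted p = 0.021), with 7.94% of genes lower. It passed in edgeR when NLS 2 h replicate 1 (−0.75, adjusted p = 0.017) or NLS 2 h replicate 2 (−0.71, adjusted p = 0.034) was left out. Without FAMA 3 h replicate 3 it was at −0.59 (adjusted p = 0.12), no member was called and 5.70% of genes were.

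The remaining H3.1 genes had log2 fold changes of −0.31 (AT1G09200), −0.29 (AT5G10390), −0.19 (AT5G10400) and −0.19 (AT5G65360) in FAMA, with adjusted p from 0.44 to 0.80 by edgeR. The H3.3 genes stood at 0.00 (HTR4), 0.04 (HTR5) and 0.20 (HTR8, SE 0.13, adjusted p = 0.47). Epidermal markers summed to 67.3 to 206.1 normalized CPM in FAMA, with 1 of 2 called lower, and 5 of the 7 meristemoid and guard mother cell markers fell (152.8 to 281.4 in FAMA). This list holds HDG2, a putative target in the paper, so it does not measure cell types alone. The part of these cell types was not tested here either.

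No H3 gene passed the test against NLS in either repressor fusion. In SRDX-FAMA, where edgeR called 2.25% of genes, no member was called and none had an unadjusted p under 0.05; DESeq2 called none. The H3.1 log2 fold changes ran from −0.31 (AT3G27360, SE 0.19, adjusted p = 0.54) to 0.07 (AT5G10400) and the H3.3 ones from −0.03 to 0.09. Without the library labelled SRDX-FAMA 4 h replicate 2, edgeR called 3.33% of genes, again with no member among them; AT3G27360 was at −0.26 (adjusted p = 0.63), AT5G10400 at 0.18 (adjusted p = 0.86) and the H3.3 genes at −0.01 to 0.12. In SRDX-SPCH, with 2.67% of genes called, the H3.1 log2 fold changes were all below 0, between −0.43 (AT5G10390, SE 0.26, adjusted p = 0.56) and −0.18 (AT5G10400), and those of HTR8 and HTR5 were −0.22 (SE 0.13, adjusted p = 0.56) and −0.12. No member was called by edgeR or DESeq2 and none had an edgeR p under 0.05. Both epidermal markers fell in SRDX-FAMA (summed level 91.4 to 167.3 normalized CPM, and the same range without that library) and 1 of 2 in SRDX-SPCH (103.2 to 200.5).

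Setting the induced lines against each other leaves NLS out of the comparison. AT3G27360 rose in SRDX-SPCH relative to SPCH, from a median of 1.09 to 1.78 normalized CPM, with a range in SRDX-SPCH of 1.21 to 3.22. All 11 SRDX-SPCH libraries were above the lowest SPCH library, and 2 were above the highest. The log2 fold change was 0.69 (SE 0.21, adjusted p = 0.037), a ratio of 1.61, in a comparison in which 11.6% of genes were called and 5.38% were higher. AT3G27380 had a log2 fold change of −0.15 (SE 0.09, adjusted p = 0.34). The other 4 H3.1 genes stood between −0.01 (AT5G10390) and 0.46 (AT5G10400, SE 0.33), none of them called. HTR8 stood at −0.27 (SE 0.13), with an edgeR p of 0.049 before and 0.20 after adjustment. Of the cell type markers, 2 of 2 epidermal and 2 of 7 meristemoid and guard mother cell markers were higher in SRDX-SPCH, with an epidermal sum of 103.2 to 200.5 normalized CPM beside 59.3 to 141.1 in SPCH.

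This call too depended on single libraries. The adjusted p of AT3G27360 was between 0.050 and 0.092 in 13 of the 23 fits that left out 1 library, at log2 fold changes of 0.57 to 0.70. These libraries were SPCH 2 h replicates 1, 3 and 4, SPCH 3 h replicates 2 and 4, SPCH 4 h replicates 1, 3 and 4, SRDX-SPCH 2 h replicates 2 and 4, SRDX-SPCH 3 h replicates 1 and 2 and SRDX-SPCH 4 h replicate 4. The last gave the smallest difference, 0.57. DESeq2 called it with all libraries (adjusted p = 0.010).

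No member was called between SPCH and FAMA by edgeR or DESeq2. Pooled over time, where 1.57% of genes were called, the 5 H3.1 log2 fold changes of SPCH against FAMA were between −0.50 and −0.17, and 3 of the 5 had an unadjusted edgeR p under 0.05, as did 10.3% of all genes. These were AT5G65360 (−0.37, adjusted p = 0.36), AT3G27360 (−0.46, adjusted p = 0.40) and AT5G10400 (−0.50, adjusted p = 0.45). Without FAMA 3 h replicate 3, where 1.17% of genes were called, the 5 were between −0.49 and −0.20 and none was called. In the separate fits at each time point, edgeR called few genes at all, 0.00881% at 2 h, 0.0133% at 3 h and 0.00892% at 4 h. The H3.1 genes were between −0.79 and −0.56 at 2 h (2 of 5 with an unadjusted p under 0.05, beside 4.84% of all genes), between −0.37 and 0.45 at 3 h and between −0.56 and 0.00 at 4 h. The H3.3 genes stayed between −0.28 and 0.12. No member was called between SRDX-FAMA and FAMA either, with 13.1% of genes called, H3.1 log2 fold changes of −0.07 to 0.30 and H3.3 ones of −0.06 to 0.10; without the library labelled SRDX-FAMA 4 h replicate 2, 12.1% of genes were called, no member among them, with H3.1 values of 0.02 to 0.33 and H3.3 values of −0.04 to 0.08. Without FAMA 3 h replicate 3, 10.6% of genes were called, again no member, with H3.1 values of −0.11 to 0.25.

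Within the FAMA line, the H3.1 genes had their highest mean levels at 2 h. AT1G09200 had 5.01, 9.22, 9.42 and 10.3 normalized CPM in the 4 libraries at 2 h, 4.34, 4.43 and 5.52 in the 3 at 3 h, and 3.86, 4.03, 4.82 and 5.15 in the 4 at 4 h. Only FAMA 2 h replicate 4 (5.01) reached into the later range. AT5G10400 had 2.54, 2.66, 3.03 and 3.803 at 2 h, 0.97, 1.26 and 1.85 at 3 h, and 0.75, 1.28, 1.41 and 2.18 at 4 h, with no overlap between 2 h and later.

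AT5G10390 had 1.21, 1.52, 1.70 and 2.24 normalized CPM at 2 h, 0.55, 0.70 and 0.86 at 3 h, and 0.56, 0.62, 0.92 and 1.07 at 4 h. AT3G27360 had 1.76, 2.45, 2.56 and 2.59 at 2 h, 1.10, 1.33 and 1.34 at 3 h, and 1.04, 1.499, 1.64 and 1.71 at 4 h. AT5G65360 had 2.23, 2.32, 2.53 and 2.81 at 2 h, 1.77, 1.86 and 2.34 at 3 h, and 1.31, 1.47, 1.61 and 1.97 at 4 h. The 2 h and 4 h libraries of these 3 genes did not overlap. In all, 4 of the 5 H3.1 genes were lower at 4 h than at 2 h with no overlap, as were 4.54% of all genes tested, and 3 of 5 were lower at 3 h with no overlap, as were 4.78%. At 3 h against 2 h without FAMA 3 h replicate 3, the 5 log2 fold changes were −1.42 to −0.44, with adjusted p of 0.63 to 0.79 by edgeR. The FAMA library names end in a, d, e or f at 2 h and in b, c or e at 3 h, so time and letter are largely confounded. With the letter as a block, the 5 were −1.27 to −0.385 at 3 h against 2 h (edgeR adjusted p = 0.9998 each). At 4 h the block fit held letters a, d and f, since it left out the library whose name has no letter. It gave −1.475 to −0.583 against 2 h (edgeR adjusted p of 0.064 to 0.35). By elimination that library has the letter e, which would give 4 h the same letters as 2 h. A block fit with it was not run.

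By edgeR, none of these differences passed the adjustment. At 4 h against 2 h the log2 fold changes were −0.92 for AT1G09200 (SE 0.22, adjusted p = 0.0998), −1.09 for AT5G10400 (SE 0.34, adjusted p = 0.17), −1.06 for AT5G10390 (SE 0.34, adjusted p = 0.18), −0.63 for AT5G65360 (SE 0.24, adjusted p = 0.26) and −0.66 for AT3G27360 (SE 0.27, adjusted p = 0.28). All 5 had an unadjusted p under 0.05, as did 14.1% of all genes tested, but edgeR called 0 genes in this contrast (0%). DESeq2 called 1085 genes, 3.85% of those it tested as lower, among them 3 of the 5 H3.1 genes: AT1G09200 (adjusted p = 0.0063), AT5G10400 (0.025) and AT5G10390 (0.035). With FAMA 2 h replicate 4 left out, edgeR called 333 genes, and AT1G09200 passed at −1.10 (adjusted p = 0.018).

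No H3.3 gene had an unadjusted p under 0.05 in this contrast. Their log2 fold changes at 4 h against 2 h in FAMA were −0.17 (HTR4, SE 0.15), −0.13 (HTR5, SE 0.14) and 0.07 (HTR8, SE 0.16), and their libraries overlapped between all time points. The median over the 5 H3.1 genes was −0.92, over the 3 H3.3 genes −0.13 and over all genes tested −0.02. The epidermal markers were also higher at 2 h in FAMA, with sums of 89.8 to 206.1 normalized CPM at 2 h, 67.3 to 90.2 at 3 h and 71.6 to 78.5 at 4 h, although neither was called; those of meristemoids and guard mother cells were 152.8 to 281.4 at 2 h and 184.7 to 261.1 at 4 h. The part of cell composition in the H3.1 difference was not tested.

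**Figure D4:**
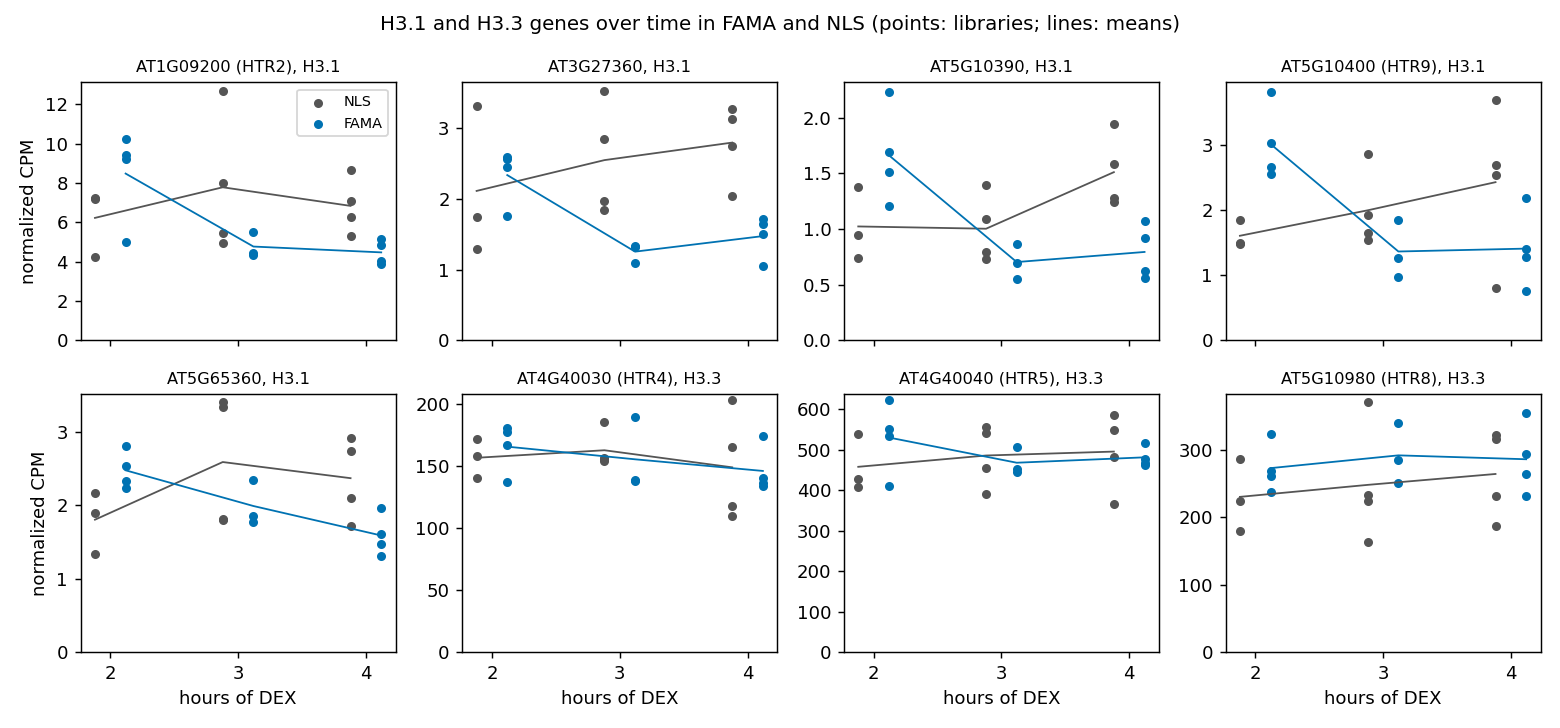
Normalized CPM of each H3.1 and H3.3 gene at 2, 3 and 4 h of DEX in FAMA and NLS, 1 point per library, with a line through the group means. In FAMA the H3.1 genes are highest at 2 h (AT1G09200, 5.01 to 10.3, against 3.86 to 5.15 at 4 h), while the H3.3 libraries of the 3 time points overlap.

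In the other lines, the time points overlapped for the H3.1 share. Among single genes, AT5G10400 in SPCH did not overlap between 2 h (1.41 to 2.26 normalized CPM) and 4 h (0.53 to 1.40), the case for 1.42% of all genes lower at 4 h, and its log2 fold change of −0.88 was not called (adjusted p = 0.70 by edgeR). In NLS, the H3.1 log2 fold changes at 4 h against 2 h were all above 0 (0.12 to 0.58) and none had an unadjusted p under 0.05. In SPCH they were between −0.88 and −0.25, in SRDX-FAMA between −1.09 and −0.31 (−0.87 to −0.36 without the library labelled SRDX-FAMA 4 h replicate 2) and in SRDX-SPCH between −0.36 and 0.01. Over the 15 contrasts of time points within lines, 0 members were called by edgeR, 10 of the 75 tests of H3.1 genes and 0 of the 45 tests of H3.3 genes had an unadjusted p under 0.05, and DESeq2 called the 3 genes in FAMA given above. Of the 10, 5 came from FAMA at 4 h against 2 h and 4 from FAMA at 3 h against 2 h. There 14.1% and 10.7% of all genes had such a p. The last was AT5G10400 in SRDX-FAMA at 4 h against 3 h. Its log2 fold change was −0.832, and −0.635 without the library labelled SRDX-FAMA 4 h replicate 2. Over the 15 contrasts the share of all genes with such a p ran from 0.707% to 14.1%. edgeR called 0% of all genes in 14 of these contrasts and 0.0042% in SRDX-SPCH at 4 h against 2 h.

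The change from 2 h to 4 h was then compared with that in NLS by the interaction of line and time. For FAMA the 5 H3.1 differences were −1.06 (AT1G09200, SE 0.40), −1.07 (AT3G27360, SE 0.43), −1.63 (AT5G10390, SE 0.46), −1.70 (AT5G10400, SE 0.56) and −1.03 (AT5G65360, SE 0.39), with unadjusted p from 0.0022 to 0.022 and an adjusted p of 0.97 in edgeR, where 5.01% of all genes had an unadjusted p under 0.05. For H3.3 they were −0.25 to −0.10. No member passed in any of the 4 lines, and edgeR and DESeq2 called 0% of genes in each. The other 3 lines also had H3.1 differences below 0 for each of the 5 genes, of −1.48 to −0.41 in SPCH, −1.63 to −0.56 in SRDX-FAMA (−1.42 to −0.49 without the library labelled SRDX-FAMA 4 h replicate 2) and −0.92 to −0.37 in SRDX-SPCH. Since the NLS libraries enter each of these differences, the 4 are not independent of each other.

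Over all 29 comparisons, edgeR called 3 of the 145 tests of H3.1 genes and 0 of the 87 tests of H3.3 genes, beside 1.62% of the tests of all genes. DESeq2 called 8 and 0, beside 2.55% of all tests. The largest H3.3 difference was −0.46 (HTR8, the interaction for SRDX-SPCH, SE 0.33), and 1 of the 87 H3.3 tests, that of HTR8 in SRDX-SPCH against SPCH, had an unadjusted p under 0.05.

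Genes of the other histones and of S phase were counted in the same comparisons with NLS. In SPCH, where 4.13% of all genes were lower, 3 of 13 H2A genes and 2 of 11 H2B genes fell, while 0 of 8 H4 genes, 0 of 3 linker histone H1 genes, 0 of 6 other H3 genes and 0 of 13 H3 chaperones and handling genes (among them the CAF-1 subunits FAS1 and FAS2, HIRA and ATRX) were called in either direction. Their median log2 fold changes were −0.07 (H2A), −0.02 (H2B), −0.21 (H4), −0.35 (H1), −0.28 (other H3) and 0.04 (chaperones), beside 0.01 over all genes. Of 13 S phase genes (PCNA, MCM2 to MCM7 and ribonucleotide reductase among them), 0 were called in SPCH, FAMA or SRDX-FAMA against NLS, with medians of −0.27, −0.05 and −0.08, and 1 was lower in SRDX-SPCH. In FAMA, 1 of 13 H2A genes fell and no H4 or H2B gene was called. In SRDX-SPCH, 1 of 11 H2B genes and 1 of 3 H1 genes fell. In SRDX-FAMA no gene of these histone lists was called with all libraries, and 1 of 13 H2A genes fell without the library labelled SRDX-FAMA 4 h replicate 2.

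Of the 10 mitosis genes, all fell in FAMA (median log2 fold change −2.75) and in SPCH (−1.41) relative to NLS, 4 fell in SRDX-FAMA (−0.65) and none was called in SRDX-SPCH (−0.34). Of all genes, 7.42%, 6.84%, 2.25% and 2.67% were called in these comparisons, in this order. The authors reasoned that lower division genes against NLS could come from a skewed NLS sort, as given above. This was not tested here. CDKB2;1, a plant-specific kinase of the G2-to-M transition, had a median of 33.8 normalized CPM in NLS, 2.78 in FAMA and 9.14 in SPCH, with log2 fold changes of −3.64 (SE 0.25, adjusted p = 8.7e-10) and −1.79 (SE 0.23, adjusted p = 1.3e-05). CDKB1;1, of the same family, had 8.29, 0.914 and 2.65. Mitosis genes were also higher in SPCH than in FAMA (9 of 10, median 1.26), where 1.57% of all genes were called. In that comparison no H3.1 gene was called and the 5 H3.1 log2 fold changes were below 0. Without the library labelled SRDX-FAMA 4 h replicate 2, 5 of the 10 fell in SRDX-FAMA relative to NLS (−0.67). In SRDX-FAMA against FAMA all 10 were higher (median 2.00, and 2.01 without that library) and in SRDX-SPCH against SPCH 8 of 10 were (median 1.04). Of all genes, 13.1% and 11.6% were called in these comparisons with all libraries.

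In FAMA at 4 h against 2 h, none of the genes of any list was called by edgeR, and the median log2 fold change was 0.02 for mitosis genes, −0.53 for S phase genes, −0.39 for H4, −0.35 for H2A, −0.24 for H2B (10 of 11 tested), −0.76 for H1 and 0.01 for the chaperones, beside −0.92 for the H3.1 genes and −0.02 over all genes.

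Across the 57 libraries the H3.1 genes varied together and apart from the H3.3 genes. As a description, with library depth and sort shared by all points, Pearson's r of log2 CPM between pairs of H3.1 genes was 0.52 to 0.76 (10 pairs, median 0.63), and 0.38 to 0.71 after the mean of each line and time point was subtracted. Between an H3.1 and an H3.3 gene it was −0.19 to 0.22 (15 pairs, median −0.03), and −0.38 to 0.24 after the subtraction. Over the 56 libraries without the one labelled SRDX-FAMA 4 h replicate 2, r was 0.52 to 0.78 between H3.1 genes and −0.22 to 0.21 between the classes, and −0.42 to 0.23 between the classes after the subtraction. Among H3.3 genes it was 0.59 for HTR5 with HTR8, 0.40 for HTR4 with HTR5 and −0.16 for HTR4 with HTR8. AT3G27360 and AT5G10400, which share 10 windows, had an r of 0.52, the lowest among H3.1 pairs.

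**Figure D5:**
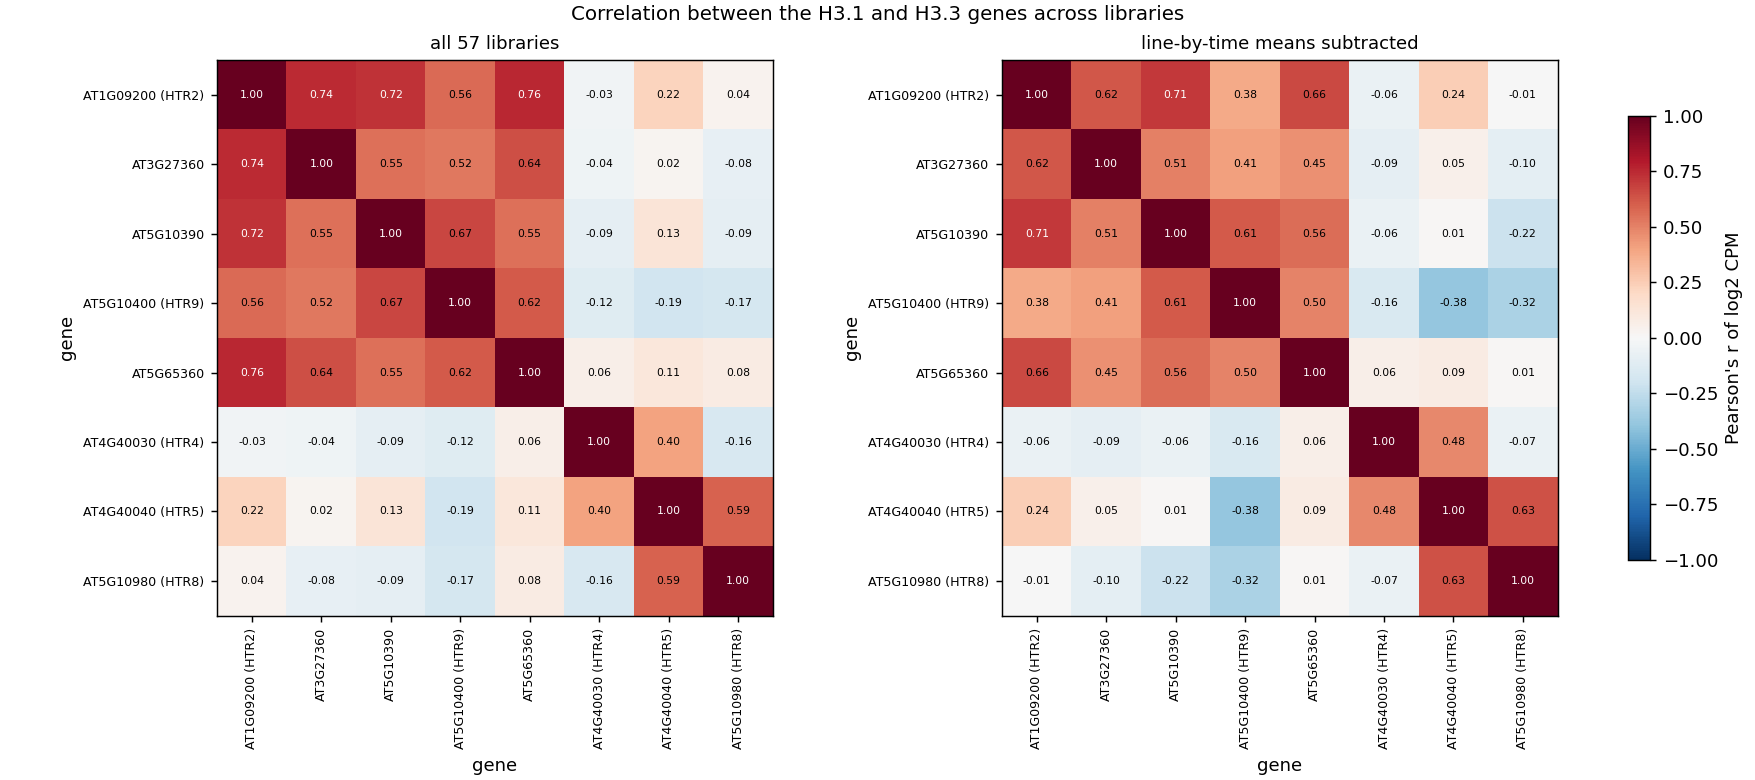
Pearson's r of log2 CPM between each pair of the 8 genes over 57 libraries, before (left) and after (right) the mean of each line and time point was subtracted; colour runs from −1 to 1. The H3.1 genes form a block of 0.52 to 0.76 on the left and 0.38 to 0.71 on the right, and H3.1 with H3.3 lies between −0.19 and 0.22 on the left and −0.38 and 0.24 on the right.

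The genes whose levels were most like the mean log2 CPM of the 5 H3.1 genes, among 13725 genes with a mean of at least 5 normalized CPM, were SWEET16 (r = 0.82), a vacuolar sugar transporter, AT5G47380 (0.81), AT5G19240 (0.81), CYP706A1 (0.80), a cytochrome P450, and PERK15 (0.80), a proline-rich extensin-like receptor kinase. Their r stayed at 0.76 to 0.80 after the line and time means were subtracted. The genes most like the mean of the 3 H3.3 genes were PMSR3 (0.87), a methionine sulfoxide reductase, NUDT16 (0.87), a nudix hydrolase, HTA10 (0.87), an H2A gene, ISU1 (0.86), an iron-sulphur cluster scaffold, and CYTC-1 (0.85), a cytochrome c. These are rankings over 57 libraries, and by Spearman's rho only 2 of the 5 genes in each ranking were kept. Without the library labelled SRDX-FAMA 4 h replicate 2, 4 of the 5 genes of the H3.1 ranking and 5 of 5 of the H3.3 ranking were kept.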

How the data were processed

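Cells of 5 inducible lines were profiled in 57 libraries from Venus-positive sorted cells, made with the SMART-Seq v4 kit and read as single ends of 50 bases. Alignment by the authors was to TAIR10 with STAR and gene counting with HTSeq. What they deposited are unnormalized counts of 27655 genes in separate libraries; tool versions, the annotation release and whether strand was used in counting are not given in the sources used here. Line, time point and replicate came from the sample titles and library names, and 0 columns were left out. The name of 1 FAMA library at 4 h matches no sample record. It was given its group but no replicate number or letter, and is absent from block fits. The only sample record left without a library name is FAMA 4 h replicate 4, whose letter is e, so by elimination the library is that one. The paper calls the libraries of a group biological replicates. Neither it nor the labels say that they came from separate batches of seedlings, so p-values measure the spread between these libraries. No pair of libraries within a group agreed within sampling noise (81 pairs, lowest chi-square per degree of freedom 14.39). Pairs of libraries from different groups were not examined in this way.

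The 8 members, the gene lists and the tests were chosen with earlier results of these data known. Genes were kept by filterByExpr (minimum count 10), scaled by TMM and tested with edgeR's quasi-likelihood F test, with Benjamini-Hochberg adjustment over all genes of a contrast and a threshold of 0.05; an SE is the log2 fold change divided by the square root of F. Lines were compared over the 3 time points with time as an additive term, SPCH and FAMA also at each time point, time points within each line, and the change from 2 h to 4 h as an interaction. Normalized CPM were scaled by TMM over the 57 libraries, and divided by exon length in kb only for comparisons between genes. Log2 CPM for correlations used a prior count of 2. All 8 members, and at most 3 genes per other list and comparison (smallest adjusted p among called genes whose libraries do not overlap), were named, with the 5 genes of highest Pearson's r to the class means among genes of at least 5 mean normalized CPM. Coding sequences, lengths and overlaps came from RefSeq's TAIR10.1 annotation, to which 27445 genes matched, and sequences were read from its genome.

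As alternatives, the Wald test of DESeq2 replaced edgeR, size factors of DESeq2 replaced TMM, the filter was left out or raised to 10 counts in every library, and the fits were repeated as 1 fit of all 57 libraries, with the replicate number or the letter of the library name as a block, and without each library. The deviations from group means of libraries that share a letter correlated in every pair for FAMA with NLS (7 pairs, r = 0.17 to 0.64) and SRDX-SPCH with NLS (8 pairs, 0.26 to 0.69), but not for SPCH (8 of 9 pairs over 0.1) or SRDX-FAMA (7 of 8) with NLS. Between time points of 1 line, libraries that share a letter correlated over 0.1 in 4 of 6 pairs for NLS and 3 of 4 for FAMA. This was so in 7 of 7 pairs for SPCH, 8 of 8 for SRDX-FAMA and 3 of 5 for SRDX-SPCH. The pairing by letter is therefore a pattern in the data, since no label states what a letter marks. The fits were tested on simulated counts. The software was edgeR 4.0.16, DESeq2 1.42.0 and limma 3.58.1 under R 4.3.3.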

Additional observations from a re-analysis of the deposited data

Results flagged for a closer look

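Single libraries stood apart from the other 3 of their group in 5 of the 108 groups of values examined, by the gap between that library and its nearest neighbour as a part of the group's range. Chance flags about 1 group in 20. AT3G27360 was low in FAMA 2 h replicate 4, at 1.755 normalized CPM beside 2.448 to 2.589 in the other libraries of its group. AT5G10400 (HTR9) was low in SRDX-FAMA 3 h replicate 3, at 1.511 beside 3.033 to 3.179. AT4G40030 (HTR4) was high in NLS 3 h replicate 4, at 185.4 beside 154.1 to 156.3, and in FAMA 4 h replicate 1, at 173.9 beside 134.1 to 140.1. The H3.1 share was high in NLS 3 h replicate 4 as well, at 3.826% beside 2.237% to 2.432%.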

How the results depend on the processing

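No log2 fold change past the threshold changed sign under any alternative run. With all libraries kept, the number of H3 genes called moved for 3 comparisons. For FAMA against NLS it rose from 0 to 1 with the letter block, DESeq2's Wald test and 1 fit of all 57 libraries, and the gene was AT3G27360 in each (adjusted p = 0.036, 0.021 and 0.045). For SPCH against NLS it fell from 2 to 1 with the replicate block, where AT1G09200 had an adjusted p of 0.059 by edgeR; the replicate numbers did not pair these libraries, since 0 of 11 pairs correlated over 0.1. It reached 3 with DESeq2, the letter block, 1 fit of all libraries and at least 10 counts per library. For FAMA at 4 h against 2 h it rose from 0 to 3 with DESeq2. Leaving out 1 library gave 0 to 1 genes called for FAMA against NLS, 1 to 3 for SPCH against NLS, 0 to 1 for SRDX-SPCH against SPCH, 0 to 1 for FAMA at 4 h against 2 h, and 0 for the other comparisons. The block changed no other call of an H3 gene. DESeq2's size factors and the absence of a filter changed no call of an H3 gene. H3.1 genes with under 10 counts in any library of a fit had no value under the stricter filter.

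Counts of all genes called depended on the tool: DESeq2 against edgeR gave 1175 and 547 for SRDX-FAMA against NLS, 1222 and 653 for SRDX-SPCH against NLS, 625 and 385 for SPCH against FAMA, and 160, 154 and 92 against 2, 3 and 2 for SPCH against FAMA at 2, 3 and 4 h. Over time they were 1085 and 0 (FAMA, 4 h against 2 h), 341 and 0 (FAMA, 3 h against 2 h), 173 and 0 (SPCH, 4 h against 2 h) and 93 and 1 (SRDX-SPCH, 4 h against 2 h). The letter block gave 3930 genes beside 1684 for SPCH against NLS, 1351 for SRDX-FAMA, 1294 for SRDX-SPCH and 340 for FAMA at 4 h against 2 h; 1 fit of all libraries gave 964 for SRDX-FAMA against NLS and 209 for FAMA at 4 h against 2 h, and at least 10 counts per library gave 64 for the latter. The causes were not tested. The H3.1 share was the same without TMM and had a median of 1.31% without division by exon length. The lowest values of AT5G10390 and AT5G10400 rest on 1 count each. The share, correlations and rankings without the library labelled SRDX-FAMA 4 h replicate 2 were added after seeing the data.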
